A study of Mus musculus with 6 samples.

Results

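The genes of the cytosolic ribosomal proteins, the protein parts of the ribosomes that read nuclear mRNAs, were examined in mouse liver after hepatocyte-directed silencing of Rnf10. They were taken from the count table by symbol: Rpl or Rps followed by a digit, Rplp followed by a digit, and Rpsa, with named -ps copies, the Rps6k kinases and Rps19bp1 left out. This gave 92 genes of 55487. Of these, 31 encode canonical proteins of the small subunit and 46 canonical proteins of the large subunit. The other 15 are paralogs and copies, such as Rpl22l1, Rps27l and Rps4l. At least 1 count was recorded for 90 of the 92, and 86 had enough counts to be tested, 76 of them canonical.

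Each ribosome carries 1 copy of nearly every ribosomal protein, so the cell makes these proteins in closely matched amounts, and proteins made in excess are degraded. Most of their mRNAs begin with a cytosine followed by an unbroken run of pyrimidines, the terminal oligopyrimidine (TOP) tract, through which mTORC1 and LARP1 set how actively they are translated. RNF10 is a ubiquitin ligase known for ubiquitylating RPS2 and RPS3, small-subunit proteins near the channel where mRNA enters the ribosome, on ribosomes that have stalled. In hepatocytes, whose secretion of plasma proteins demands steady translation, ribosomal protein mRNAs are among the abundant housekeeping messages.

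The 6 libraries came from livers of male wild-type C57BL/6J mice on normal chow, collected at 17 weeks of age and all labelled as 1 batch. In 3 of the mice a control siRNA, GalNAc-siNC, had been injected under the skin, and in the other 3 an siRNA against Rnf10, GalNAc-siRnf10. GalNAc is a sugar that carries the siRNA into hepatocytes through the asialoglycoprotein receptor, whereas the RNA was taken from whole liver, so that fewer cells of a type and less RNA per cell cannot be told apart. Dose and injection days of these mice were not stated in the sources used here, and replicates are separate mice. Libraries held 26854377 to 33058645 counts. Normalized counts are counts scaled by TMM factors to the mean effective library size of the 6 libraries, differences were tested with edgeR's quasi-likelihood test, and a gene was called higher or lower at a Benjamini-Hochberg adjusted p under 0.05 over the 14046 genes tested.

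Rnf10 (chr5:115241412-115272898, GRCm38, minus strand) was measured first as a check of the labels. Its normalized counts were 3869, 4536 and 4040 in the GalNAc-siNC mice and 1738, 1821 and 1793 in the GalNAc-siRnf10 mice. All 3 treated mice lay below all 3 controls, with a log2 fold change of -1.22 (SE 0.07, edgeR adjusted p = 3.29e-09), a fall of 57.0% in the group mean. The exact two-sided permutation test gave p = 0.1, the smallest that 3 mice against 3 allow.

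The starts of the genes are shown because the TOP tract is the feature these mRNAs share that the choice of genes did not use. RefSeq start sites (GRCm38.p6) were matched for 67 of the 92 genes. Below are 30 bases around the start, 15 before it and 15 from it onward, of Rps2, Rps3 and Rplp0 and of the 5 genes with the highest normalized counts among those whose annotated start is itself a cytosine followed by at least 4 pyrimidines. Runs of that kind are in capitals.
Rps2 (chr17:24720048-24720077, plus strand): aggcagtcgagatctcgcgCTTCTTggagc
Rps3 (chr7:99483695-99483724, minus strand): cttgcaagggtcgccgcgctgcgcggcgtc
Rplp0 (chr5:115559452-115559481, plus strand): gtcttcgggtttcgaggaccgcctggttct
Rps6 (chr4:86857353-86857382, minus strand): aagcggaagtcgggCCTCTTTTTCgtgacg
Rps18 (chr17:33955651-33955680, minus strand): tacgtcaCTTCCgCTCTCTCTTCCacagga
Rpl15 (chr14:18270972-18271001, minus strand): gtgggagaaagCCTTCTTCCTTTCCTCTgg
Rpl28 (chr7:4792950-4792979, plus strand): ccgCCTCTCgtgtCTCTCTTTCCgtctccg
Rpl35a (chr16:33056467-33056496, plus strand): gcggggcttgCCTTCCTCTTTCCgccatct

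The annotated start itself was such a tract in 15 of the 67 ribosomal protein genes (22.4%), against 3.01% of all 27025 genes with a start in the table. Anywhere in the window of 30 bases, on the strand of the gene, a tract was found in 65.7% of the ribosomal protein genes and in 40.3% of all genes. Rps2 has a tract a few bases after its annotated start, while the windows of Rps3 and Rplp0 hold none. The search read only the 30 bases around the annotated start, and where these mRNAs begin in liver was not measured. A gene without a tract here may therefore still have a TOP mRNA. The median log2 fold change was 0.32 in the 13 canonical genes tested whose annotated start is a tract and 0.34 in the 43 others with a RefSeq start. These sets are split by annotation and do not separate TOP mRNAs from others.

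Ribosomal protein mRNAs lay higher in the GalNAc-siRnf10 livers for most of the genes, by small amounts, and few of the differences were called. The median log2 fold change over the 86 genes tested was 0.36, against 0.00 over all genes tested, and 83 of the 86 were above 0. Only 9 were called higher and 1 lower. The background for these calls is 6.71% of all genes tested called higher and 7.28% called lower, beside 10.5% of the ribosomal protein genes called higher. Most of these genes have short mRNAs, and of the other genes with the shortest 10% of mRNAs 10.3% were called higher. The share of members called depended on the tool far more than that of all genes. DESeq2, which the study used, called 27 of the 86 higher (31.4%), where it called 6.79% of all genes, and limma voom with quality weights called 17, where it called 7.83%. Every GalNAc-siRnf10 mouse lay above every GalNAc-siNC mouse in 63 of the 86 genes and below in 0, where 16.5% and 16.4% of all genes did so.

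Both subunits gave similar counts of calls, and the difference between them was not tested. In the small subunit, 4 of the 31 genes were called higher and 0 lower, with a median log2 fold change of 0.38. The large subunit had 4 of its 45 tested genes called higher and 0 lower, with a median of 0.34. For both subunits the background is 6.71% of all genes called higher and 7.28% called lower. Small-subunit genes took 40.5% to 41.6% of the canonical counts in the GalNAc-siNC mice and 41.4% to 41.6% in the GalNAc-siRnf10 mice, overlapping ranges.

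**Figure D1:**
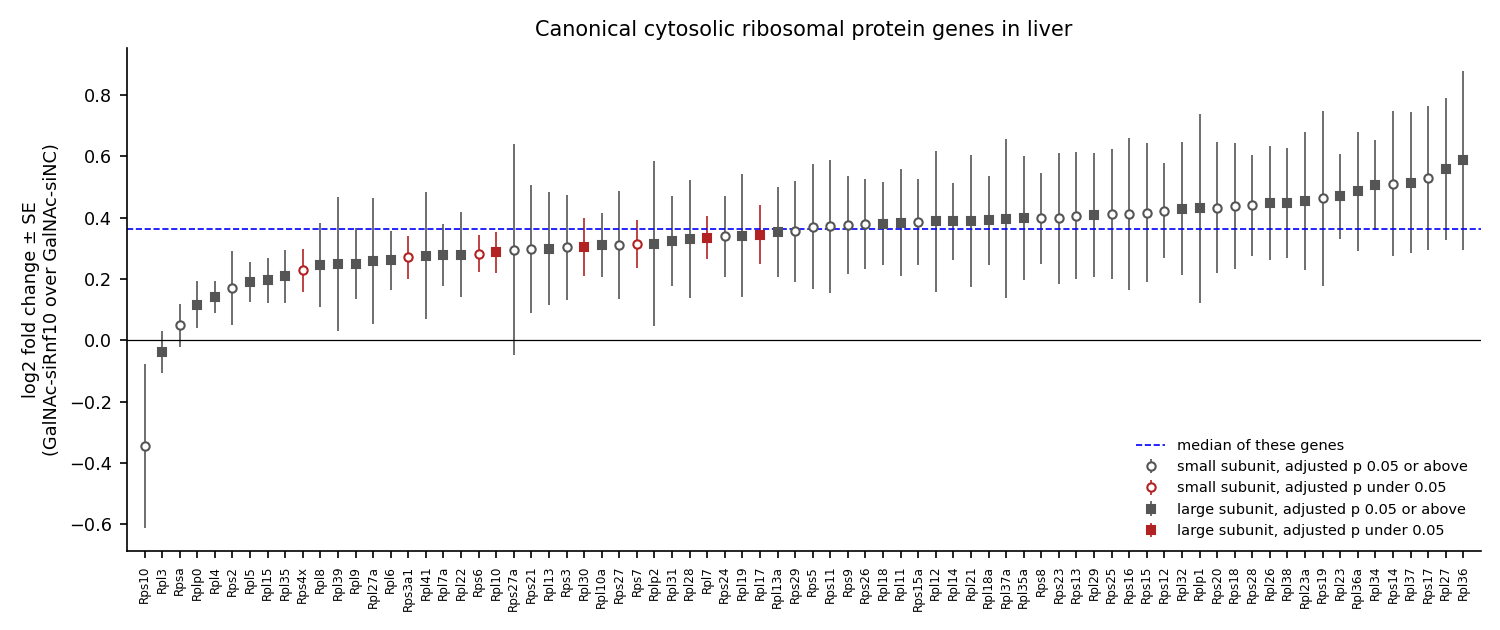
Log2 fold change of each of the 76 canonical ribosomal protein genes tested, with its standard error (n = 3 mice a group), ordered by size. Open circles are small-subunit and filled squares large-subunit genes, and red marks an edgeR adjusted p under 0.05. All but Rps10 and Rpl3 lie above 0, the dashed median is 0.36, and the called genes are those with short error bars rather than those with the largest changes.

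The spread between mice of a group lay almost wholly among the controls. Together the 92 genes took 0.851%, 1.10% and 1.20% of all counts in GalNAc-siNC mice 1, 2 and 3, and 1.26%, 1.27% and 1.24% in the GalNAc-siRnf10 mice. GalNAc-siNC mouse 1 was the lowest of the 6 libraries for 82 of the 86 genes tested, where it was the lowest for 24.1% of all genes tested. The median SD of the log2 normalized counts over these genes was 0.35 in the GalNAc-siNC mice and 0.05 in the GalNAc-siRnf10 mice, against 0.13 and 0.07 over all genes tested with a mean of at least 100. The highest GalNAc-siNC mouse exceeded the lowest at least 1.5 times in 54 of the 86 genes, and the highest GalNAc-siRnf10 mouse exceeded the lowest by as much in 2.

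**Figure D2:**
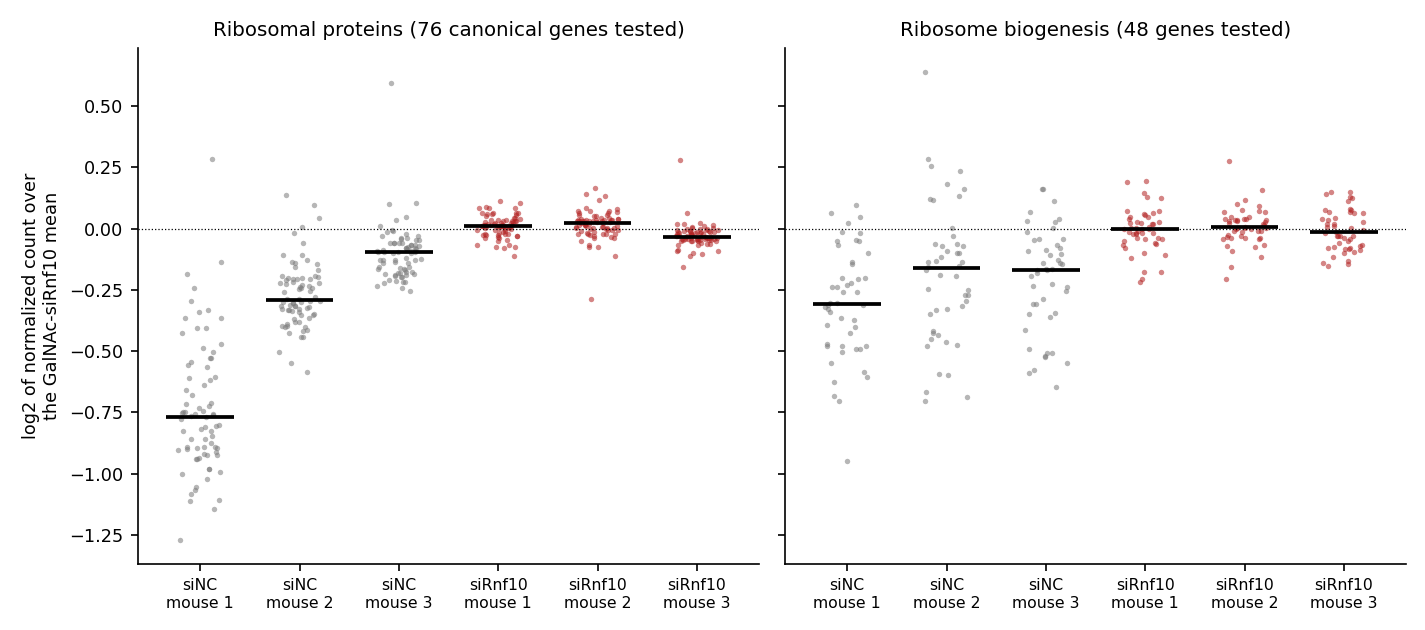
Each point is 1 gene in 1 mouse, as the log2 of its normalized count over its mean in the GalNAc-siRnf10 mice, and bars are medians. The left panel holds the 76 canonical ribosomal protein genes, with medians of -0.77, -0.29 and -0.10 in the GalNAc-siNC mice and between -0.03 and 0.02 in the GalNAc-siRnf10 mice. The right panel holds 48 ribosome biogenesis genes, with medians of -0.31, -0.16 and -0.17 in the GalNAc-siNC mice.

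Leaving out GalNAc-siNC mouse 1 or mouse 3 made the calls more numerous, while the difference became smaller without mouse 1 and larger without mouse 3. The median log2 fold change of the 86 genes was then 0.18, with 51 genes called higher and 1 lower, beside a background of 9.73% higher and 10.2% lower. All 9 genes called with 6 mice were among the 51. Without GalNAc-siNC mouse 3 the median was 0.50 and 54 genes were called higher (62.8%), where 6.91% of all genes were. Without mouse 2 it was 0.38, with 6 called higher beside 5.56% of all genes. No value given here separates a feature of GalNAc-siNC mouse 1 from one of its library.

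The genes that were called higher are led by Rpl7, Rps6 and Rpl10. Rpl7 encodes a large-subunit protein, and its normalized counts were 6579, 7988 and 8010 in the GalNAc-siNC mice and 9593, 9612 and 9260 in the GalNAc-siRnf10 mice. All treated mice lay above all controls, with a log2 fold change of 0.33 (SE 0.07, edgeR adjusted p = 0.00362). Rps6 encodes the small-subunit protein that S6 kinase phosphorylates downstream of mTORC1, and its counts were 6740, 7004 and 7678 in the controls and 8752, 8705 and 8610 after Rnf10 silencing. The groups did not overlap here either, and the log2 fold change was 0.28 (SE 0.06, adjusted p = 0.00378). Rpl10, whose protein joins the large subunit late in its assembly, had 9404, 10159 and 11564 counts against 12857, 12705 and 12397, with a log2 fold change of 0.29 (SE 0.07, adjusted p = 0.00822). It too was higher in 3 of 3 treated mice than in any control.

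The other 6 called higher were Rps7 (log2 fold change 0.31, edgeR adjusted p = 0.011), Rps3a1 (0.27, 0.0167), Rpl37rt (0.46, 0.0207), Rpl17 (0.34, 0.0375), Rps4x (0.23, 0.0388) and Rpl30 (0.30, 0.046). None of them overlapped between the groups. Rps7 and Rpl17 encode proteins of the small and the large subunit that sit on the ribosomal RNA core. Rps6 and Rpl7 were called with each mouse left out in turn. Without GalNAc-siNC mouse 2, 6 of the 9 genes were called. Without GalNAc-siRnf10 mouse 1, 2 or 3 the counts were 2, 2 and 4 of the 9, with no other member called higher, where 3.59%, 3.77% and 3.77% of all genes were. Over the 9 genes the group means differed 1.17-fold, in Rps4x, to 1.37-fold, in Rpl37rt.

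The largest differences were not among the calls. Rpl36, chosen here after its values were seen, had the highest log2 fold change of the canonical genes, 0.59 (SE 0.29, adjusted p = 0.293). Its normalized counts were 858, 1464 and 1826 in the GalNAc-siNC mice and 2110, 2107 and 2001 in the GalNAc-siRnf10 mice. The treated mice were almost equal and lay above all controls, while the controls spread 2.13-fold. Rpl27, named on the same footing, had 1462, 1979 and 2609 counts against 2819, 3324 and 2757, with a log2 fold change of 0.56 (SE 0.23, adjusted p = 0.213).

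Rps2 and Rps3, whose proteins are known ribosomal substrates of RNF10, were compared with the rest of the family. Rps2 (chr17:24718116-24721929, plus strand) had 12867, 17321 and 17931 normalized counts in the GalNAc-siNC mice and 18165, 17964 and 18020 in the GalNAc-siRnf10 mice. The treated mice lay just above the highest control, and the lowest value was again that of GalNAc-siNC mouse 1. The log2 fold change was 0.17 (SE 0.12, edgeR adjusted p = 0.43), below the median of the family, and without GalNAc-siNC mouse 1 it was 0.03 (adjusted p = 0.66). With the offsets for mRNA length and GC content described below it was 0.085 (adjusted p = 0.187), where the family's median was 0.19.

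Rps3 (chr7:99477896-99483738, minus strand) had 4093, 5808 and 6451 normalized counts in the controls and 6608, 6872 and 6701 after Rnf10 silencing. The groups did not overlap, and the log2 fold change was 0.30 (SE 0.17, adjusted p = 0.337), near the median of the family. Without GalNAc-siNC mouse 1 it was 0.13 (adjusted p = 0.0545). With the offsets Rps3 had 0.25 (adjusted p = 0.489), where the family's median was 0.19. The offset of Rps3 rests on an annotated principal mRNA of 1908 bases, with a coding sequence of 729 bases. Which mRNA of Rps3 is present in liver was not tested, so its place relative to the median with the offsets is uncertain. For Rps2 and for Rps3 the exact permutation test gave p = 0.1, the smallest possible. Leaving both out, the other 74 canonical genes had a median log2 fold change of 0.37.

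Relative to the whole family, Rps2 took 52.5, 53.5 and 50.6 of every 1000 ribosomal protein counts in the GalNAc-siNC mice and 47.6, 46.8 and 48.5 in the GalNAc-siRnf10 mice. This share of Rps2 was lower in every treated mouse than in any control. Rps3 took 16.7, 17.9 and 18.2 against 17.3, 17.9 and 18.0 per 1000, with overlapping groups. A lower share was also seen in longer members of the large subunit. Rpl3, which builds part of the peptidyl transferase region of the large subunit, went from 26.9, 24.6 and 21.9 to 19.0, 19.3 and 19.1 per 1000. Rplp0, the base of the acidic stalk that recruits translation factors, went from 41.9, 40.0 and 35.4 to 34.6, 34.4 and 33.2 per 1000.

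Rpl3 and Rplp0 themselves were not called. Rpl3 had 6585, 7966 and 7754 normalized counts in the controls and 7236, 7407 and 7081 in the treated mice, with a log2 fold change of -0.04 (SE 0.07, adjusted p = 0.774). Rplp0 had 10265, 12955 and 12528 counts against 13211, 13202 and 12336, with a log2 fold change of 0.12 (SE 0.08, adjusted p = 0.364). In both genes the groups overlapped, and the mRNAs of both are among the longer ones of the family, at 1351 and 1358 bases.

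**Figure D3:**
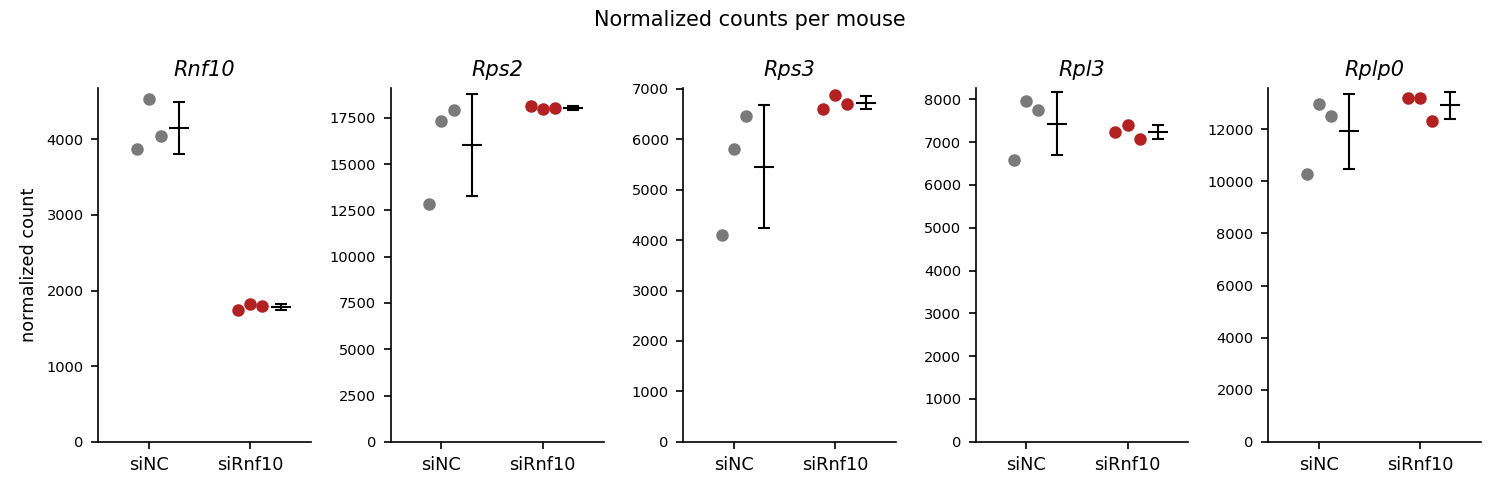
Normalized counts of Rnf10, Rps2, Rps3, Rpl3 and Rplp0 in each mouse (dots, n = 3 a group), with the mean and SD beside them, all axes starting at 0. Rnf10 separates the groups widely, whereas in the 4 ribosomal protein genes the lowest dot is a control, GalNAc-siNC mouse 1, and the treated mice are nearly level.

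The other functional groups within the ribosome gave no call except Rpl17 in the exit tunnel. At the mRNA entry channel and among the substrates of the ligases that act on stalled ribosomes (Rps2, Rps3, Rps10 and Rps20), 0 of 4 genes were called, with log2 fold changes from -0.34 to 0.43. Rps20, whose protein is ubiquitylated by ZNF598 on collided ribosomes, had 1860, 2847 and 3237 normalized counts in the controls and 3570, 3667 and 3478 after silencing, a log2 fold change of 0.43 (SE 0.21, adjusted p = 0.283). Rps10 encodes the other substrate of that ligase. It was one of the lowest genes of the family, as described below with its copy.

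In the acidic stalk (Rplp0, Rplp1, Rplp2 and Rpl12), 0 of 4 genes were called and all 4 were above 0. Rplp1, a stalk protein, spread from 3447 to 7327 normalized counts in the controls and from 7173 to 7963 in the treated mice, which overlapped (log2 fold change 0.43, adjusted p = 0.469). Rplp2, its partner in the stalk dimers, had a log2 fold change of 0.32 (adjusted p = 0.542), and Rpl12, at the base of the stalk, one of 0.39 (adjusted p = 0.374). Rpl5 and Rpl11, which carry the 5S ribosomal RNA and restrain MDM2 when assembly fails, were higher in every treated mouse without being called. The log2 fold change was 0.19 for Rpl5 (adjusted p = 0.0576) and 0.38 for Rpl11 (adjusted p = 0.236).

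Fau and Rack1 also encode components of the cytosolic ribosome, under names that the choice by symbol does not catch. Fau, which encodes a ubiquitin-like protein fused to the small-subunit protein S30, had 1853, 3002 and 3534 normalized counts against 4105, 3960 and 3834 (log2 fold change 0.51, SE 0.25, adjusted p = 0.298). Rack1, the scaffold on the head of the small subunit, had a log2 fold change of 0.22 (adjusted p = 0.185) and no overlap between the groups. Both thus lay on the same side as most of the family.

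Levels per kilobase of mRNA spanned a wide range although the proteins are needed in like amounts. Rps2 was the highest of the 86 genes tested, with a mean of 17079 normalized counts per kilobase of its principal mRNA over the 6 mice. It was followed by Rpl10 with 14411, Rplp1 with 13318, Rpl41 with 9439 and Rpl4 with 9381 per kilobase. The order of Rps2, Rpl10 and Rplp1 was the same in each group, whereas that of the genes after them was not. In the GalNAc-siNC mice Rpl4 (8926) and Rplp0 (8775) lay above Rpl41 (8540), and in the GalNAc-siRnf10 mice Rpl41 (10337) was followed by Rps15 (10299) and Rps18 (10220), with Rpl4 at 9837. Rpl41 encodes the smallest protein of the ribosome, and Rpl4 one that lines the exit tunnel. Rpl4 stood out for its even controls, at 13312, 13679 and 14193 normalized counts against 15344, 15078 and 14964 (log2 fold change 0.14, SE 0.05, adjusted p = 0.0889). At the low end were Rps3a2 with 23.2, Rps3a3 with 30.8, Rps10 with 49.3, Rpl36al with 54.3 and Rpl13a with 179 per kilobase.

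Several of these low values belong to genes that share sequence or position with another gene. Rps10 (chr17:27630418-27636669) had 263 counts over the 6 libraries, while its copy Rps10-ps2 on chromosome 16 had 7219, although the copy is the one named as a pseudogene. The mRNA and the copy are identical at 491 of 496 aligned bases, with 392 identical bases in a row, longer than the reads of 150 bases. In the stretch of the Rps10 coding sequence where they differ most, bases 379 to 438 counted from the first base of the start codon, 4 of 60 bases differ, shown in capitals.
Rps10: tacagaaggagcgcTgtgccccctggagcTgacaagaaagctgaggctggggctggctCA
Rps10-ps2: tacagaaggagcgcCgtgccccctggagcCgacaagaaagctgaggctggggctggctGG
Over most of this sequence a read of either gene therefore cannot be assigned by its bases, and the exons of Rps10 also overlap an annotated read-through transcript. The sign of Rps10 depended on this. Its log2 fold change was -0.34 (SE 0.27, adjusted p = 0.452) from its own counts and 0.29 (adjusted p = 0.179) with the counts of its named copies added, where Rps10-ps2 alone had 0.28 (SE 0.11, adjusted p = 0.103).

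Rpl24 had only 35 counts in all and was not tested, with 47.0% of its exonic bases inside another annotated gene on the same strand. Rpl13a, one of the reference genes in use for quantitative PCR, had 1116 counts and 29.4% of its exonic bases inside another gene on its strand. The overlapping genes were listed at 0 counts in all 6 libraries. How reads in shared exons were assigned is not given in the sources used here, so the low levels of Rps10, Rpl24 and Rpl13a are levels in this table rather than of the mRNAs.

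Of the 15 genes outside the canonical lists, 10 were tested, 1 was called higher and 1 lower, beside 6.71% and 7.28% of all genes tested. Rps4l (chr6:148354656-148355598, plus strand), an annotated transcribed copy of the X-linked Rps4x, was the only ribosomal protein gene called lower. It had 340, 486 and 477 normalized counts in the controls and 317, 286 and 343 in the treated mice. The highest treated mouse lay just above the lowest control, GalNAc-siNC mouse 1. The log2 fold change was -0.46 (SE 0.14, edgeR adjusted p = 0.0323), and without that control -0.62. Without any 1 of the other 5 mice it was not called, with adjusted p from 0.0626 to 0.155. Rps4x (chrX:102184941-102189394, minus strand) was called higher, with 5567, 6417 and 6893 counts against 7405, 7492 and 7216.

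The sequences of Rps4x and Rps4l are shown because, unlike the other copies, they are far enough apart to be counted separately. They are identical in 79.8% of 792 aligned columns, with no more than 35 identical bases in a row. In the 60 bases of the Rps4x coding sequence where they differ most, bases 475 to 534, 20 differ, in capitals.
Rps4x: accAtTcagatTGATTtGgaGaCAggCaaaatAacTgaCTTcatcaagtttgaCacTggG
Rps4l: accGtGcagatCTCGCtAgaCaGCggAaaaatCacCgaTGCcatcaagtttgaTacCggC
No stretch as long as a read of 150 bases is thus shared by these genes. With offsets for mRNA length and GC, described below, Rps4l kept its call, with a log2 fold change of -0.56, and Rps4x did not, with 0.05 (adjusted p = 0.529).

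The called copy Rpl37rt (chr5:115102923-115110268, minus strand) is a different case. It had 185, 211 and 224 normalized counts in the controls and 301, 268 and 282 in the treated mice. Its transcript is identical to the Rpl37 mRNA in 99.7% of 340 aligned bases, with 257 in a row, and Rpl37 itself had a log2 fold change of 0.51 (adjusted p = 0.241). Rps27rt is identical to Rps27 over all 341 aligned bases, Rps3a2 and Rps3a3 to Rps3a1 over 99.5% and 98.9%, and Rpl6l to Rpl6 over 98.7%. For Rpl37rt, Rps27rt, Rps3a2, Rps3a3 and Rpl6l the counts may hold reads of the parent gene and are uncertain. None of the last 4 was called, with log2 fold changes from 0.07 in Rpl6l to 0.36 in Rps3a2 and Rps3a3.

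The paralogs with sequences of their own lay above 0 without being called. Rps27l, a p53-responsive relative of Rps27 with 76.4% identity over 254 aligned columns, had 1664, 2401 and 2912 normalized counts in the controls and 3125, 3213 and 2933 in the treated mice (log2 fold change 0.41, SE 0.21, adjusted p = 0.30). Rpl22l1, the paralog that can replace Rpl22, had 252, 350 and 406 against 448, 404 and 438 (0.36, adjusted p = 0.119). Rpl7l1, related to Rpl7, had a log2 fold change of 0.19 (SE 0.07, adjusted p = 0.0694), and Rpl36al one of 0.18 (adjusted p = 0.777). The muscle paralog Rpl3l had 17 counts in all and Rpl39l 4, and Rpl10l, known from testis, was listed at 0 in every library, as was Rps12l1. Rpl32l had 11 counts, and none of these 5 was tested.

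What most of the family shares beyond its function is short mRNA. The 76 canonical genes tested had a median principal mRNA of 775 bases and a median coding length of 455 bases, against 2837 and 1383 bases over the 12348 protein-coding genes tested. Of the 86 genes, 58 fell among the 10% of tested genes with the shortest mRNAs, up to 887 bases, and 20 among the next 10%. GC content was close, at 51.9% and 50.4%.

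Short mRNAs lay higher in the GalNAc-siRnf10 libraries outside the ribosomal protein family too. Among the genes that are not members, the median log2 fold change was 0.23 in the shortest 10%, 0.12 in the next, and -0.06 in the longest. In the shortest group, 10.3% of these other genes were called higher and 2.08% lower. The 58 ribosomal protein genes of that length had a median of 0.37, and 6 of them were called higher, a share near that of the other genes. By mouse, the other genes of the shortest 10% had medians of -0.41, -0.20 and -0.08 in GalNAc-siNC mice 1, 2 and 3, on the log2 scale and relative to the GalNAc-siRnf10 mean, the same order as the -0.77, -0.29 and -0.09 of the ribosomal protein genes.

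**Figure D4:**
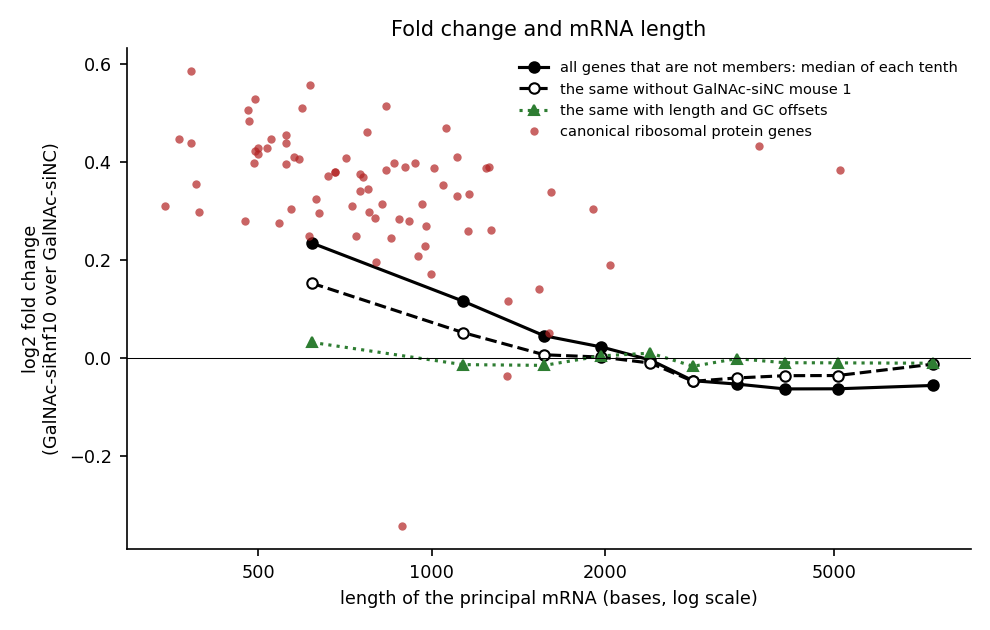
Log2 fold change against the length of the principal mRNA on a log axis. Red points are the 76 canonical ribosomal protein genes, and lines join the medians of all other genes tested, in 10 groups by length. The medians run from 0.23 in the shortest group to -0.06 in the longest with 6 mice (filled circles), less steeply without GalNAc-siNC mouse 1 (open circles), and stay near 0 with the length and GC offsets (triangles).

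Within the family the shorter genes also lay higher. Over the 76 canonical genes, which share their 6 libraries, the log2 fold change and the coding length had a Pearson correlation of -0.39 and a Spearman correlation of -0.51. For mRNA length these were -0.33 and -0.45, and for gene-model length -0.22 and -0.20. Without GalNAc-siNC mouse 1 the correlations with coding length were -0.18 and -0.26. The median log2 fold change was 0.43 in the 26 genes with the shortest mRNAs (345 to 614 bases), 0.34 in the 25 of middle length and 0.32 in the 25 longest (937 to 5130 bases). Rps15a and Rps20, whose principal mRNAs are annotated with 5130 and 3706 bases and whose coding sequences have 390 and 357, had log2 fold changes of 0.38 and 0.43.

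Offsets for mRNA length and GC content, fitted per library over all genes, were therefore applied as an alternative chosen after the data were seen. With them the median log2 fold change of the 86 genes was 0.19, with 15 genes called higher and 2 lower, beside a background of 9% higher and 8.91% lower. Of the 9 genes called without the offsets 1, Rps7, was among the 15 (log2 fold change 0.15, adjusted p = 0.0215). Rpl3 joined Rps4l among the lower calls, with -0.14. With the offsets and without GalNAc-siNC mouse 1 the median was 0.09, and 67 of the 86 genes were above 0. The calls were then 26 higher and 3 lower, where 10.5% and 9.15% of all genes were called, and the 26 included Rps6, Rpl10 and Rps7 but not Rpl7. The size of the shift over the family thus ranged from 0.09 to 0.36, on the log2 scale, across these fits. In further fits the calls were 35 with no filter beyond 1 count (4.69% of all genes), 15 with the replicate number as a block (6.37%), 20 with gene-model length and GC offsets and the block (8.69%) and 35 with gene-model offsets without GalNAc-siNC mouse 1 (10.8%). At an adjusted p under 0.01, 3 members were called higher beside 3.57% of all genes, and under 0.1, 17 beside 9.28%. Whether mRNA length or library quality had a part in it was not tested beyond these offsets.

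**Figure D5:**
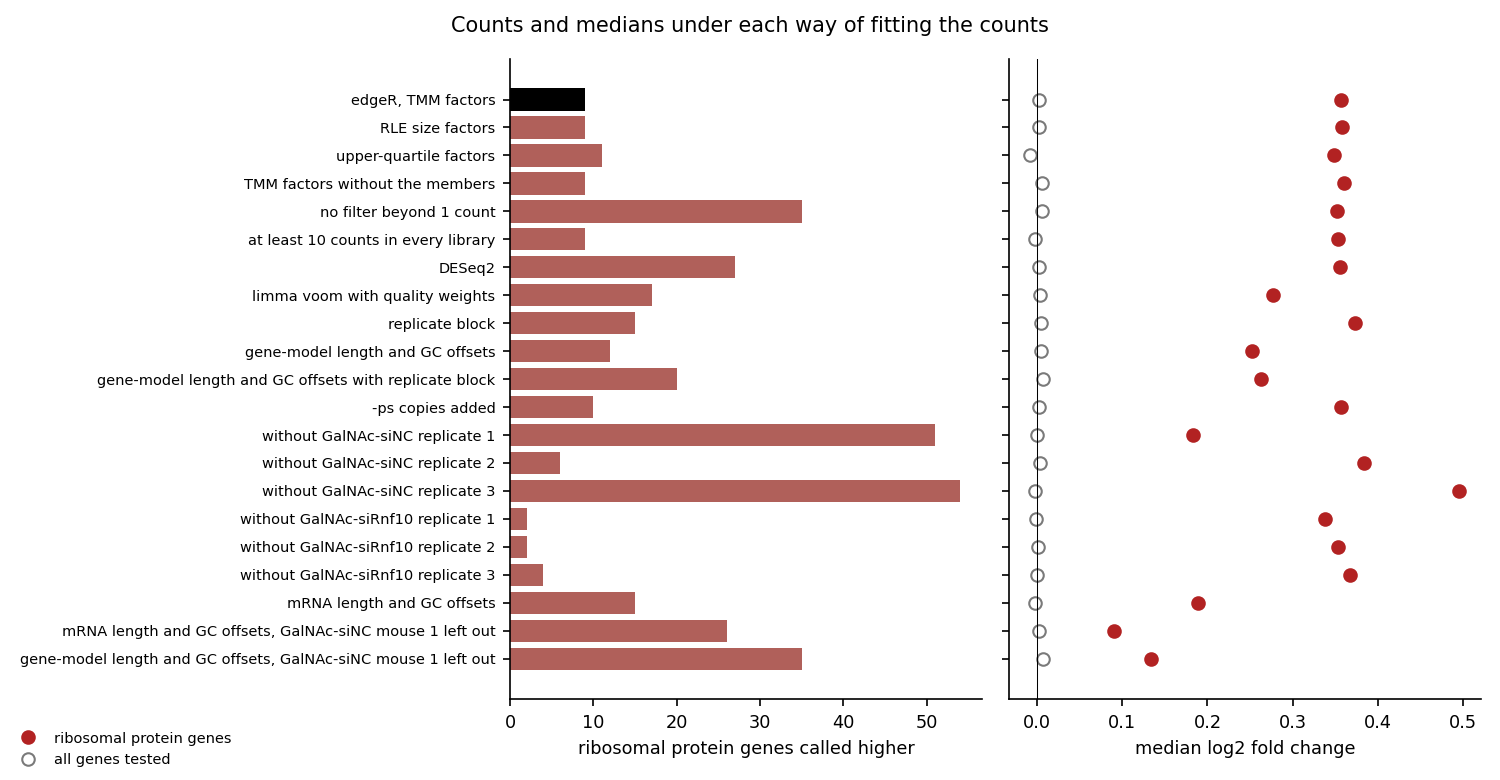
Number of ribosomal protein genes called higher (left) and median log2 fold change (right) under each way of fitting the counts, with the edgeR fit of all mice in black on the left and, on the right, the ribosomal protein genes in red and all genes tested as open circles. The number called ranges from 2 to 54 while the median stays between 0.09 and 0.50, above that of all genes in every fit.

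Genes that serve the ribosome were counted next, from lists written with earlier results of these data known. Among 48 tested genes of ribosome biogenesis, which process ribosomal RNA and assemble the subunits in the nucleolus, 15 were called higher and 0 lower, with a median log2 fold change of 0.23. The background is again 6.71% higher and 7.28% lower. Without GalNAc-siNC mouse 1, 19 were called higher, all 15 among them, where 9.73% of all genes were. With the length and GC offsets it was 21, with 13 of the 15 among them, beside a background of 9%. Without GalNAc-siRnf10 mouse 1, 2 or 3 the calls were 10, 7 and 8, where 3.59%, 3.77% and 3.77% of all genes were called. The summed normalized counts of the list were 34641 to 37423 in the controls and 41345 to 42080 in the treated mice, which did not overlap.

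The largest called changes were in Mak16, Nop2, Nop58 and Nob1. Mak16, a factor of early large-subunit assembly, had 104, 97.0 and 101 normalized counts in the controls and 136, 165 and 173 in the treated mice (log2 fold change 0.65, SE 0.16, edgeR adjusted p = 0.0104). Nop2, a ribosomal RNA methyltransferase, had 490, 565 and 548 against 859, 789 and 716 (0.56, SE 0.10, adjusted p = 0.000698). Nop58, a core protein of the box C/D particles that methylate ribosomal RNA, had 520, 478 and 493 against 797, 715 and 649 (0.53, adjusted p = 0.00116). Nob1, the nuclease that makes the end of the small-subunit RNA, had 232, 288 and 240 against 358, 377 and 339 (0.50, adjusted p = 0.00898). In each of these genes every treated mouse lay above every control, and the controls were close to each other.

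Of 20 translation factors and other genes with TOP mRNAs, 3 were called higher and 0 lower, with a median log2 fold change of 0.16. For this and the next lists the background stays 6.71% higher and 7.28% lower. Eef1a1, the elongation factor that brings aminoacyl-tRNA to the ribosome, had 111248, 106060 and 106339 normalized counts against 121007, 121746 and 121942 (0.17, SE 0.05, adjusted p = 0.019). Npm1, a nucleolar chaperone of ribosome assembly, was called with 0.27 (adjusted p = 0.014), and Naca, which guards nascent chains at the tunnel exit, with 0.27 (adjusted p = 0.0153). Of 6 chaperones dedicated to single ribosomal proteins, only Grwd1, which escorts RPL3, was called, with 195, 223 and 277 counts against 326, 370 and 299 (0.52, SE 0.14, adjusted p = 0.0179). Of 12 genes that control stalled ribosomes by ubiquitin or rescue them, 1 was called higher, a share near the background. It was Hbs1l, the partner of Pelota in splitting stalled ribosomes, with 0.31 (SE 0.07, adjusted p = 0.00702), and 0 were called lower. Under 20 alternatives the call was lost in 7 for Eef1a1, 5 for Naca, 3 each for Npm1 and Grwd1 and 1 for Hbs1l.

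Among 14 genes of mTOR signalling and TOP mRNA control 0 were called higher and 2 lower, beside 6.71% and 7.28% of all genes. Myc, a transcription factor known for driving ribosomal protein and biogenesis genes, fell from 1112, 1342 and 1223 normalized counts in the controls to 410, 460 and 486, a log2 fold change of -1.44 (SE 0.10, adjusted p = 1.45e-08). All treated mice lay far below all controls, in the direction opposite to the ribosome biogenesis genes. Mtor itself was called lower, with 1922, 1880 and 1768 against 1618, 1592 and 1589 (-0.22, SE 0.07, adjusted p = 0.0452). With the length and GC offsets Myc kept its call and Mtor did not (-0.11, adjusted p = 0.175), as in 12 of 20 alternatives for Mtor. Larp1, the protein that holds TOP mRNAs, was not called (-0.12, adjusted p = 0.236).

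Markers of the cells in a whole liver moved with the groups in part, beside the same background of 6.71% higher and 7.28% lower. Hepatocyte markers were abundant in every library of this tissue labelled liver, and 4 of 8 were called higher (Alb, Ttr, Cps1 and Cyp2e1). The summed normalized count of the 8 was 1849620 to 1998715 in the controls and 2664725 to 2749236 in the treated mice, most of it Alb. Of the 8, 7 were above 0, and the lowest log2 fold change was -0.11. With the mRNA length and GC offsets 5 were called higher and 1 lower, beside 9% and 8.91% of all genes. Of the stellate cell markers, 4 of 5 were called higher (Colec11, Dcn, Reln and Ecm1), with sums of 3184 to 3305 against 3929 to 4110, and of the sinusoidal endothelial markers 2 of 5 (Gpr182 and Clec4g), with sums of 1826 to 1873 against 2041 to 2117. Within the endothelial and stellate lists Stab2, a scavenger receptor of sinusoidal endothelium, and Lrat, which stores retinol in stellate cells, lay on the other side. Stab2 had a log2 fold change of -0.26 (adjusted p = 0.0544, and 0.0239 without GalNAc-siNC mouse 1) with every treated mouse below every control, and Lrat one of -0.27 (adjusted p = 0.245). Among cholangiocyte markers 1 of 4 tested was called lower (Spp1), with sums of 1878 to 1951 against 1039 to 1060 that were almost wholly Spp1. The other 3, Krt19, Krt7 and Epcam, had 16 to 36 counts a library and were not called (adjusted p 0.691 to 0.822). The 1 neutrophil marker tested, S100a9, was called lower at 12 to 46 normalized counts a library. With all mice, 0 of 5 Kupffer cell, 0 of 2 lymphocyte and 0 of 4 erythroid markers were called. Without GalNAc-siNC mouse 1, 1 Kupffer cell marker was called lower, beside 10.2% of all genes, and with the mRNA length and GC offsets 1, beside 8.91%. With both changes the erythroid calls were 1 higher and 2 lower, beside 10.5% and 9.15% of all genes. The part of cell makeup in the ribosomal protein values was not tested.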

How the data were processed

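RNA-seq of 6 livers, 3 GalNAc-siNC and 3 GalNAc-siRnf10, was used. The authors made stranded mRNA libraries, sequenced paired reads of 150 bases, mapped them with HISAT2 to GRCm38 (mm10) and deposited whole-number counts for each gene that were not normalized. They used DESeq2. The tool that counted, its annotation and its strand setting are not given in the sources used here. The table also holds gene-model lengths in bases, used for an alternative. Symbols, mRNA lengths and coordinates came from GENCODE M21 (GRCm38), with the principal transcript of each gene, and 346 of 55487 identifiers had no symbol. Start sites came from RefSeq (GRCm38.p6), and promoter entries were matched by symbol.

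The counts went into edgeR 4.0.16 (R 4.3.3). Low genes were dropped by filterByExpr on the groups, scaling used TMM, and treatment was the only term of a robust quasi-likelihood fit, with Benjamini-Hochberg adjustment over 14046 genes. Alternatives were DESeq2 1.42.0, limma 3.58.1 voom, other scalings and filters, the replicate number as a block, offsets from natural splines with 5 degrees of freedom on length and GC, addition of the 300 named -ps copies, and leaving out each mouse. Scripts were tested on simulated data. Copies were aligned locally with Biopython 1.88, and figures drawn with matplotlib 3.10.9 in Python 3.11.15. Total counts per library were 26854377 to 33058645, so that 3 counts are at most 1.12e-05% of a library. The labels give both groups the numbers 1 to 3 for different animals, and deviations of same-numbered mice from their group means did not correlate (-0.03 to 0.02), so the numbers did not pair them.

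The ribosomal protein genes and the other lists were chosen with earlier results of these data known. Named genes were Rnf10, Rps2, Rps3, Rpl3 and Rplp0, the members at the entry channel, stalk and 5S particle, every tested member outside the canonical lists, the 5 highest and 5 lowest per kilobase, the called members, Fau and Rack1, and up to 4 called genes of each other list. Other genes named were chosen after their values were seen. 1 gene of the rule is not reported here.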

Additional observations from a re-analysis of the deposited data

How the results depend on the processing

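The direction of the family was stable and the number of calls was not. Under 20 alternatives the median log2 fold change of the ribosomal protein genes stayed above 0, but its size did not hold. From 0.36 it went to 0.18 without GalNAc-siNC mouse 1, 0.50 without mouse 3, 0.19 with mRNA length and GC offsets, 0.13 with gene-model offsets without mouse 1 and 0.091 with mRNA offsets without mouse 1. Of these the last alone moved by more than 0.25, the SD of the members' median between mice of a group, pooled over the groups, which is wide beside 0.36. That SD was 0.35 in the GalNAc-siNC mice and 0.03 in the GalNAc-siRnf10 mice, so the pooled value rests mostly on the controls. A move smaller than it does not show that the median held. The members called higher, 9 with all mice, were 35 with no filter beyond 1 count, 27 by DESeq2, 17 by voom, 15 with the replicate block, 20 with gene-model length and GC offsets and the block, 15 with mRNA length and GC offsets, 26 with these and without GalNAc-siNC mouse 1, 35 with the gene-model offsets and without that mouse, 3 at an adjusted p under 0.01 and 17 under 0.1, where 3.57% to 10.8% of all genes were called. Leaving out 1 mouse gave 2 to 54 members higher (51 without GalNAc-siNC mouse 1, 54 without mouse 3, 6 without mouse 2, 2, 2 and 4 without GalNAc-siRnf10 mice 1, 2 and 3, where 9.73%, 6.91%, 5.56%, 3.59%, 3.77% and 3.77% of all genes were) and 0 to 1 lower. Members called lower were 2 and 3 with the mRNA offsets, with all mice and without GalNAc-siNC mouse 1, and 0 under 0.01. Ribosome biogenesis genes called higher were 7 to 19 with 1 mouse left out (7 without GalNAc-siRnf10 mouse 2, 8 without mouse 3, 10 without mouse 1) and 14 to 21 otherwise. The cause of these differences was not tested.

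Rnf10 kept its call in 19 of 19 alternatives. Rps2 passed the threshold in 1 of 20, the gene-model offsets with replicate block (0.16, adjusted p = 0.0448 by edgeR), and Rps3 in 1, these offsets without GalNAc-siNC mouse 1 (0.14, adjusted p = 0.00543). The replicate block gave 0.37 for the members' median. Of 1160 values for 58 other named genes, 983 kept direction and side of the threshold, 113 lost a call, 40 gained one and 24 changed sign. Those that changed sign, none of them called in the comparison of all 6 mice, were the following on the log2 scale. With mRNA length and GC offsets Rpl36al had -0.061 and Rpl6l -0.10. With these and without GalNAc-siNC mouse 1, Rpl22l1 had -0.060, Rpl36al -0.11, Rpl6l -0.050, Rplp0 -0.0068, Rps27l -0.0060, Rps27rt -0.17, Rps3a2 -0.0067 and Rps3a3 -0.12. Gene-model offsets gave Rpl6l -0.11, also with the block (-0.11), and without GalNAc-siNC mouse 1 they gave Rpl36al -0.055, Rpl6l -0.054, Rplp0 -0.0065, Rps27rt -0.14, Rps3a2 -0.0060, Rps3a3 -0.11 and Rpsa -0.022. With -ps copies added Rps10 had 0.29. Leaving out 1 mouse at a time gave -0.12 to 0.013 for Rpl3, -0.050 to 0.33 for Rpl36al, -0.0073 to 0.14 for Rpl6l and -0.039 to 0.096 for Rpsa.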

Other observations

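The named -ps copies that the choice by symbol left out had a median fold change close to that of the genes they are named for. Of 300, 153 had a count and 53 were tested, 4 were called higher, a share near the 6.71% of all genes, and 0 lower, and their median log2 fold change was 0.34. Together they equalled 2.49% to 2.59% of the counts of the ribosomal protein genes in every library. In 9 cases the copy held at least 10% of the counts of its parent, and in 2 more than 100%. Rpl21-ps15 had 52.6% of the counts of Rpl21, to which it is identical in 99.4% of 483 aligned bases, and Rpl14-ps1 had 26.9% of those of Rpl14, with 98.9% identity over 656 aligned columns. Rpl9-ps6, identical to Rpl9 in 99.9% of its aligned bases, was called higher (log2 fold change 0.45, SE 0.12, edgeR adjusted p = 0.0172) where Rpl9 was not (0.25, adjusted p = 0.208). How reads that match both were assigned is not given in the sources used here.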
